A study of Bos taurus with 46 samples.

Results

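Blood leukocytes of heifers carrying overgrown fetuses were compared between day 105 (D105) and day 55 (D55) of gestation. The members were the 9 heifers whose in vitro produced (IVP) fetuses met the study's weight limit for large offspring syndrome (LOS), named IVP-LOS here. Each gave 1 leukocyte library on each day, so that 18 of the 46 libraries and 9 of the 23 heifers of the series belong to the group. The dams were young Angus crossbred heifers (*Bos taurus*). The IVP embryos came from Angus or Angus-crossbred oocytes fertilized with semen of a single Brahman bull, and more than one embryo was transferred to a heifer, so that some IVP heifers carried 1 fetus and others 2. The heifers used for comparison were 8 bred by artificial insemination (AI) and 6 carrying IVP fetuses below the weight limit (IVP-Normal). Both groups were also sampled on D55 and D105. Fetal weight at D105 collection assigned an IVP heifer to its group, so that on D55 the group names describe a pregnancy whose outcome came later.

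LOS is a congenital overgrowth of ruminant fetuses that is associated with assisted reproduction but also occurs without it, and it resembles Beckwith-Wiedemann syndrome of children. The dam carries the fetus, while the leukocytes measured here are her own. Blood leukocytes are a mixture of lymphocytes, monocytes and granulocytes. Neutrophils, the most short-lived of them, answer chemoattractants such as complement C5a and interleukin-8. Eosinophils and basophils respond to helminths and allergens and produce lipid mediators. In a bulk library, fewer cells of a type and less RNA per cell cannot be told apart.

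All 9 IVP-LOS libraries of D55 belonged to a set that the labels name New and all 9 of D105 to a set named BACKUP, so that day and library set cannot be told apart within the group. The same held for AI, whereas both days of IVP-Normal belonged to the set New. A figure legend of the study also places D55 blood in winter and D105 blood in summer. Season may therefore differ with day in all groups, and its part in the changes was not tested. Heifers 604 and 664 carried the 2 largest fetuses. By the fetal weights that the study lists, 604 carried 2 fetuses and 664 a single fetus, so fetal number differed within the pair. The study also describes the libraries of 604 and 664 as separate from the others when samples were clustered. The pair was therefore not singled out independently of expression, and every comparison is given with both heifers and without them. In D105 libraries, 38.0% of the reads of 604 and 36.1% of those of 664 lay on no NCBI gene, against 24.8% to 30.3% in the other 7 IVP-LOS heifers, and their reads on genes numbered 18692653 and 19641136 against 21844558 to 24473385. On D55 the 9 heifers had 23.5% to 29.2% on no gene and 21823930 to 24502012 reads on genes. Over the 9 heifers, the share on no gene was higher by 3.38 ± 5.68 percentage points on D105 (SD, n = 9, two-sided exact sign-flip permutation p = 0.129), and without 604 and 664 by 0.857 ± 3.09 (n = 7, exact permutation p = 0.516). Markers of the labelled tissue were present in every library, with *CD3E* of T cells at 320 to 769 CPM and *MS4A1* of B cells at 622 to 1950 CPM. CPM here are the usual depth-scaled gene counts, with library sizes taken as the reads on genes and adjusted by TMM factors over all 46 libraries.

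Between D55 and D105, 162 of 15163 tested genes changed in the 9 IVP-LOS heifers at a false discovery rate (FDR) of at most 0.05, which is 1.07% of those tested. Of them, 118 were higher on D105 (0.778%) and 44 lower (0.29%). The genes that rose included *C5AR1*, the receptor for complement C5a, the lipid mediator enzymes *ALOX5*, *ALOX15* and *HPGD*, the T cell genes *LEF1* and *CTLA4*, and *IL1B*, *ISG15* and *DUSP2*. The genes that fell included 6 with histone symbols, *TLR9* and *BAG3*. The median absolute log2 fold change of the 162 genes was 0.98, and 139 of them changed in the same direction in all 9 heifers (85.8%, against 3.21% of all genes tested). For 9 of the 162 genes, the D55 and D105 ranges did not overlap (5.56%, against 0.0989% of all genes tested). Leaving out heifer 512 reduced the calls to 45, leaving out 602, 664 or 656 reduced them to 65, 74 and 80, and no other single heifer moved the count by more than 1.5 times.

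The plot of paired values shows 12 of these genes, each line joining the libraries of one heifer.

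**Figure D1:**
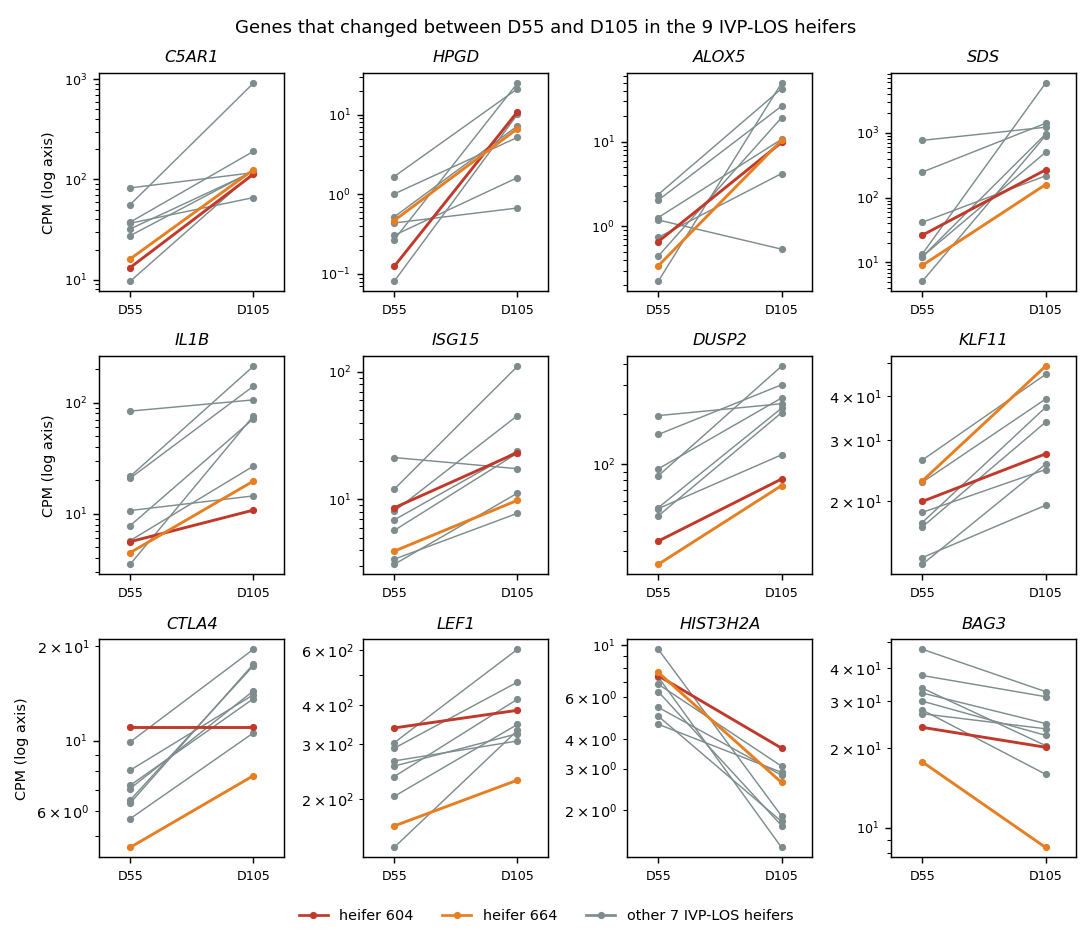
CPM (log axis) of 12 genes in the D55 and D105 leukocyte libraries of the 9 IVP-LOS heifers, with 1 line per heifer, 604 in red, 664 in orange and the other 7 in grey. *C5AR1* was higher on D105 in 9 of 9 heifers and *ALOX5* in 8 of 9, while *HIST3H2A* and *BAG3* were lower in all 9; each panel has its own scale.

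Of the chemoattractant receptors of neutrophils, 1 of 8 tested genes was called. *C5AR1* ranged from 9.64 CPM over a median of 32.1 to 82.4 CPM on D55, and from 66.0 over 120 to 915 CPM on D105. The highest value belonged to heifer 637, and the 2 ranges overlapped only between 66.0 and 82.4 CPM. Its log2 fold change was 2.39 (standard error 0.36, FDR = 0.0125), with 9 of 9 heifers higher. The receptors for interleukin-8 did not pass the threshold. *CXCR2* went from 3.43 to 83.6 CPM with a median of 10.7 on D55 to 17.7 to 852 CPM with a median of 95.3 on D105 (log2 fold change 2.52, standard error 0.54, FDR = 0.0522), and *CXCR1* had a log2 fold change of 3.68 (standard error 0.83, FDR = 0.0625). Both had the higher value on D105 in 9 of 9 heifers. The median log2 fold change of the 8 receptors was 1.42, beside -0.0088 over all genes tested.

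None of the 11 tested granule and calgranulin genes of neutrophils was called. *S100A9*, a subunit of calprotectin, was at 79.5 to 277 CPM on D55 (median 161) and at 24.8 to 3170 CPM on D105 (median 187), with 5 of 9 heifers higher and a log2 fold change of 0.0 (standard error 0.45, FDR = 0.999). The wide D105 range came from heifer 637, where the summed level of the whole granule list was 12600 CPM, against 1650 CPM in her D55 library. Heifers 604 and 664 had the lowest D105 sums, 402 and 498 CPM. The primary granule genes *MPO*, *ELANE* and *PRTN3* were among the listed genes too low to be tested.

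Of 9 tested eosinophil genes, *ADGRE3* and *ALOX15* rose. *ADGRE3*, an adhesion G protein-coupled receptor of myeloid cells, was at 1.53 to 46.4 CPM on D55 (median 23.3) and at 7.67 to 200 CPM on D105 (median 56.0). Its log2 fold change was 1.59 (standard error 0.24, FDR = 0.0125), with 9 of 9 heifers higher although the ranges overlapped. *ALOX15*, a lipoxygenase that acts on arachidonic and linoleic acid, was at 0.766 to 6.10 CPM on D55 (median 2.66) and 1.75 to 295 CPM on D105 (median 32.9). It was higher in 8 of 9 heifers, and its log2 fold change reached 3.70 (standard error 0.68, FDR = 0.0284). The receptor genes *CCR3* and *IL5RA* had log2 fold changes of 0.09 (FDR = 0.828) and 0.74 (FDR = 0.111).

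Among 21 tested prostaglandin and leukotriene genes, 3 rose and none fell. *ALOX5*, the enzyme that starts leukotriene synthesis, was at 0.224 to 2.38 CPM on D55 with a median of 0.740, and at 0.538 to 49.4 CPM on D105 with a median of 10.7. Heifer 557, with 1.19 CPM on D55 and 0.538 CPM on D105, was the exception among 9. The log2 fold change was 3.83 (standard error 0.62, FDR = 0.0156). *HPGD* inactivates prostaglandins, and it was at 0.0807 to 1.67 CPM on D55 (median 0.436) and at 0.672 to 24.9 CPM on D105 (median 7.23). Again 557 had the lowest D105 value, but all 9 heifers were higher on D105 and the log2 fold change came to 3.94 (standard error 0.54, FDR = 0.0108).

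Several enzymes outside the lists belonged to the largest rises that all 9 heifers shared. *SDS*, serine dehydratase, was at 5.12 to 765 CPM on D55 (median 13.5) and at 159 to 5840 CPM on D105 (median 904). Heifers 616 (765 CPM) and 663 (248 CPM) lay far above the others on D55, and the ranges overlapped. The log2 fold change was 4.42 (standard error 0.87, FDR = 0.0361). The transglutaminase gene *TGM3* had the largest, 4.97 (standard error 0.94, FDR = 0.0301), from a median of 0.896 CPM on D55 to one of 53.3 CPM on D105. *TGFA*, a ligand of the epidermal growth factor receptor, followed with 4.10 (standard error 0.72, FDR = 0.0237), from a median of 0.170 to one of 5.95 CPM.

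The interleukin-1 and interleukin-18 family and the interferon-stimulated genes had 1 call each, beside 0.778% of all genes tested that were called higher. *IL1B*, which encodes interleukin-1β, was the only call among 9 tested genes of the interleukin-1 and interleukin-18 family. It was at 3.51 to 84.0 CPM on D55 (median 7.82) and at 10.8 to 213 CPM on D105 (median 71.7), higher in 9 of 9 heifers with overlapping ranges (log2 fold change 2.20, standard error 0.42, FDR = 0.0326). *ISG15*, a ubiquitin-like modifier, was the only call among 32 tested interferon-stimulated genes. It went from 3.09 to 21.3 CPM (median 6.90) to 7.78 to 111 CPM (median 23.1), with 8 of 9 heifers higher (log2 fold change 1.70, standard error 0.29, FDR = 0.0214). The antiviral GTPase gene *MX1*, also of this list, was at 216 to 463 CPM on D55 and 196 to 781 CPM on D105 (log2 fold change 0.07, FDR = 0.798). The median over the 32 genes was 0.20.

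*DUSP2*, a nuclear phosphatase of MAP kinases, was the 1 call among 24 immediate early genes. It ranged from 25.1 to 196 CPM on D55 (median 54.9) and from 74.5 to 388 CPM on D105 (median 217), with 604 and 664 the lowest on both days (log2 fold change 1.42, standard error 0.18, FDR = 0.00802). *TLR9*, the endosomal receptor for unmethylated DNA, was the only call among 9 Toll-like receptors. It fell from 13.2 to 27.2 CPM (median 18.7) to 9.78 to 18 CPM (median 15.1) and was lower in all 9 heifers (log2 fold change -0.43, standard error 0.07, FDR = 0.013). *BAG3*, a co-chaperone of the heat shock proteins, was the only call among 27 heat shock and chaperone genes, lower in all 9 heifers (17.7 to 47.1 CPM on D55 and 8.42 to 32.6 CPM on D105, log2 fold change -0.51, standard error 0.09, FDR = 0.0284).

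In T cell genes, *LEF1* was the single call among 24. This transcription factor of naive T cells was at 140 to 338 CPM on D55 (median 255) and at 230 to 604 CPM on D105 (median 347), higher in 9 of 9 heifers (log2 fold change 0.64, standard error 0.11, FDR = 0.0214). *CTLA4*, an inhibitory receptor of activated and regulatory T cells, was the 1 call among 14 checkpoint and regulatory genes, a list added after the values had been seen. It ranged from 4.60 to 11.1 CPM on D55 (median 7.06) and from 7.76 to 19.5 CPM on D105 (median 14). Heifer 604 was at 11.1 CPM on both days, and the log2 fold change over all 9 was 0.92 (standard error 0.14, FDR = 0.0125). *CD3E*, a chain of the T cell receptor complex, had a log2 fold change of 0.13 (FDR = 0.496).

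Of the 10 genes of smallest FDR, 5 carry a gene name other than a LOC or histone symbol. *KLF11*, a transcriptional regulator of the Krüppel family, was at 13.1 to 26.2 CPM on D55 (median 18.5) and at 19.4 to 48.9 CPM on D105 (median 33.7). The log2 fold change was 0.80 (standard error 0.09, FDR = 0.00802), with all 9 heifers higher and overlapping ranges. *GPR132*, a G protein-coupled receptor for oxidized lipids, had a log2 fold change of 0.57 (standard error 0.07, FDR = 0.00802) from a median of 47.0 CPM to one of 69.5 CPM. *DIRAS2*, a small GTPase of the Ras family, was lower in all 9 heifers by a log2 fold change of -0.44 (standard error 0.05, FDR = 0.00802), with 172 CPM in 664 the highest D55 value and 148 CPM in the same heifer the highest on D105. *SCN2B*, a sodium channel subunit, and *FAM167B* stood at low levels, with medians of 0.161 and 0.793 CPM on D55 and of 1.76 and 2.12 CPM on D105. Only *FAM167B* of these 5 had separate ranges, 0.341 to 1.21 CPM on D55 and 1.31 to 3.14 CPM on D105.

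Symbols beginning with LOC, uncharacterized loci, made up 55 of the 162 genes, while they were 16.9% of all genes tested. *LOC101905499*, a long noncoding RNA in the reference annotation, had the smallest FDR of all. It was at 18.1 to 28.2 CPM on D55 (median 21.9) and at 28.4 to 38.3 CPM on D105 (median 34.8), without overlap (log2 fold change 0.57, standard error 0.06, FDR = 0.00623). *LOC100139881*, a protein-coding locus, was at 0.0426 to 0.555 CPM on D55 and at 1.17 to 22.3 CPM on D105, also without overlap (log2 fold change 4.41, standard error 0.55, FDR = 0.00802). *LOC504773* and *LOC616782* rose with log2 fold changes of 2.00 (standard error 0.24) and 1.64 (standard error 0.18), both with FDR = 0.00802. Among the largest shared rises were also the noncoding *LOC104976076* and the protein-coding *LOC100848752* and *LOC100295883*, with log2 fold changes of 4.02, 4.01 and 3.91.

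Histone genes formed 5 of the 8 largest shared falls. Genes of this family share near-identical sequences, and how reads were divided among them is uncertain. *HIST3H2A*, a gene for histone H2A, was at 4.62 to 9.60 CPM on D55 (median 6.83) and at 1.39 to 3.66 CPM on D105 (median 2.62). The days did not overlap, with -1.48 as log2 fold change (standard error 0.19, FDR = 0.00802). *HIST1H2BM*, for histone H2B, had the largest fall, -1.64 (standard error 0.30, FDR = 0.0284), from a median of 7.53 CPM to one of 1.88 CPM. *HIST1H2AM*, *HIST1H2BN* and *HIST2H2BF* had log2 fold changes of -1.54, -1.49 and -1.46. Counted over all symbols of this form after their values had been seen, 27 were tested, 25 had a negative log2 fold change, 6 were called lower and none higher.

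The remaining large falls were of 3 genes outside this family. *FCRL6*, an Fc receptor-like gene of cytotoxic lymphocytes, was at 1.11 to 7.03 CPM on D55 (median 2.39) and 0.273 to 5.66 CPM on D105 (median 1.29), with all 9 heifers lower (log2 fold change -0.96, standard error 0.20, FDR = 0.0455). *GPR31*, a G protein-coupled receptor for a hydroxy fatty acid, was at 1.32 to 5.20 and 0.583 to 2.92 CPM (log2 fold change -0.87, standard error 0.18, FDR = 0.0413). *MIR3064* was at 12.4 to 25.3 CPM on D55 and 6.01 to 12.4 CPM on D105 (log2 fold change -1.08, standard error 0.15, FDR = 0.0121). It is an 84-base gene inside *DDX5* in assembly ARS-UCD2.0, so reads of both genes may have been counted on it.

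In the other lists no gene was called in the 9 heifers. These were the genes of monocytes, B and plasma cells, WC1 gamma-delta T cells, natural killer and cytotoxic cells, platelets, erythroid cells and basophils, and those for MHC class II, inflammasomes, NF-kappaB, the glucocorticoid response, cytokine signal suppressors, adhesion, hormone receptors, proliferation, nuclear speckles, ribosomal proteins and the respiratory chain. Their median log2 fold changes lay between -0.51, for 3 basophil and mast cell genes, and 0.29, for 19 glucocorticoid response genes. The progesterone, prolactin and growth hormone receptor list had a median of -0.01 over 14 tested genes. In 15 monocyte genes the median was -0.39, and *CSF1R*, the receptor for colony-stimulating factor 1, was at 112 to 497 CPM on D55 and 30.1 to 500 CPM on D105 (log2 fold change -0.55, FDR = 0.266).

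The heat map of list medians sets the 9 heifers side by side. Heifer 637 stood out with a median log2 change of 3.52 over the chemoattractant receptors, 2.72 over the granule genes and 2.55 over the interleukin-1 and interleukin-18 family. Heifer 557 lay at the other end, with -0.18, -0.42 and -0.66, and with -1.17 over the monocyte genes. Heifers 604 and 664 had 0.79 and 0.72 over the chemoattractant receptors but 1.71 and 1.55 over the eosinophil genes, where the other 7 lay between -0.23 and 1.78.

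**Figure D2:**
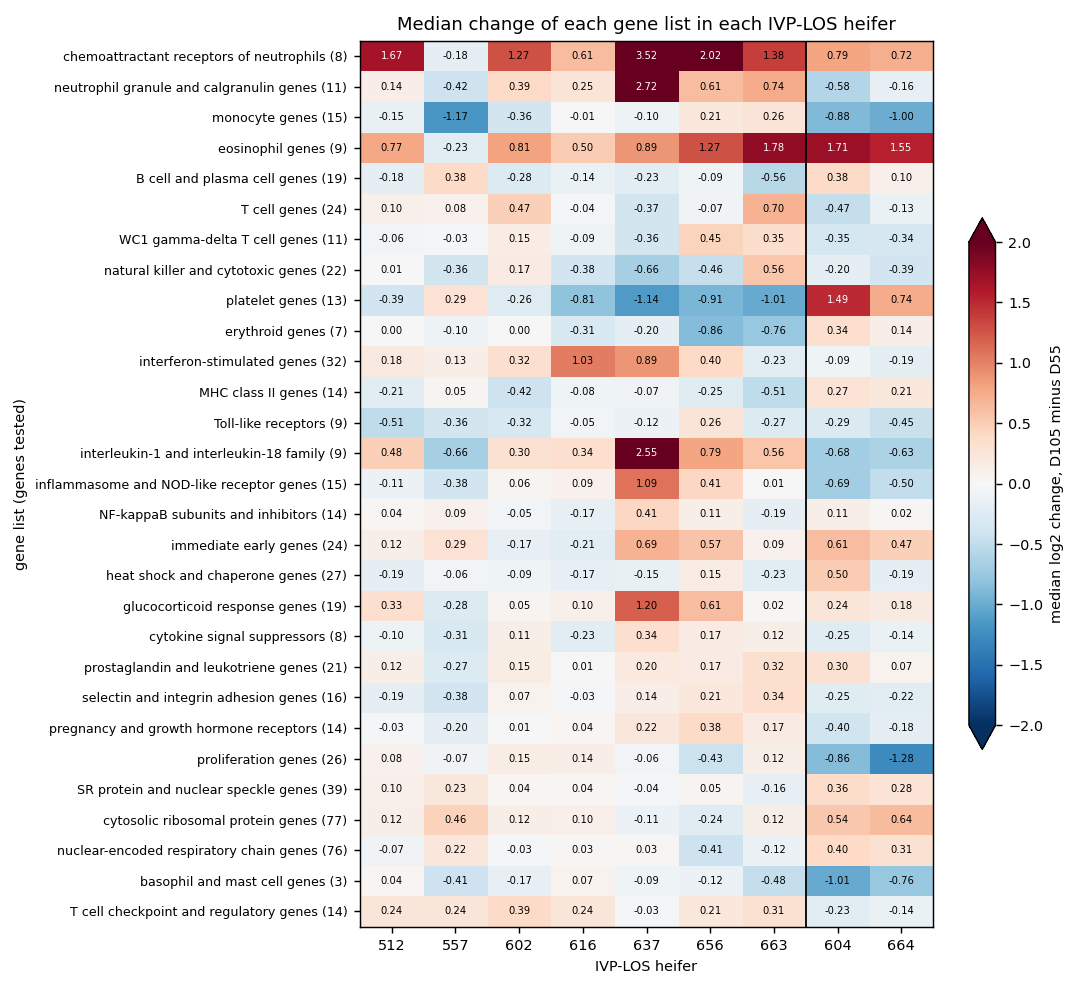
Median log2 change from D55 to D105 (log2 of CPM + 0.5) of the tested genes of each list (rows, number of genes in parentheses) in each IVP-LOS heifer (columns, with 604 and 664 right of the line); red is higher on D105, blue lower, and colours saturate at ±2. The chemoattractant receptors were above 0 in 8 of 9 heifers, and the proliferation genes lay at -0.86 in 604 and -1.28 in 664.

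Without heifers 604 and 664, 170 of 15233 genes were called in the other 7 heifers (1.12%), 125 higher (0.821%) and 45 lower (0.295%). The 2 comparisons share 14 libraries. All 7 heifers moved the same way for 156 of the 170 genes (91.8%, against 6.5% of all tested), and D55 and D105 did not overlap for 24 (14.1%, against 0.328%). The count rested on single heifers. It was 2 without heifer 512 or without 656, 4 without 602, 13 without 663, and 447 without 557.

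The gene of smallest FDR in the 7 heifers was *MS4A2*, the β chain of the high-affinity IgE receptor of basophils and mast cells. On D55 no library of the 9 heifers held more than 1 read of it and 4 held 1, while on D105 the 9 libraries held 4 to 114 reads. In CPM this was 0 to 0.0448 on D55 and 0.233 to 5.64 on D105, without overlap, and 604 (0.233) and 664 (0.492) were the lowest on D105. Over these 7 heifers it had a log2 fold change of 6.36 (standard error 0.45, FDR = 0.000945). It passed the count filter there only through the D105 libraries, where it was high, so its rank and FDR are no independent support for a change. In the 9 heifers the gene fell below the count filter, and summed over them the D105 level was 112 times that of D55 (exact 95% counting interval 43.5 to 414, counting error only). It was the only one of 4 tested basophil and mast cell genes called, in a list added after the values had been seen. The list as a whole did not rise with it. Its 3 genes tested over the 9 heifers had a median log2 change above 0 in 2 heifers, with -0.17 as the middle value. The summed list had a median of 24.9 CPM on D55 and 23.3 CPM on D105.

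*CTLA4* was second, at 5.67 to 9.92 CPM on D55 and 10.6 to 19.5 CPM on D105 in the 7 heifers, with no overlap (log2 fold change 1.07, standard error 0.10, FDR = 0.00913). *MS4A2* and *CTLA4* were called in the 7 heifers under each alternative tried on the NCBI counts. *PDK1*, a kinase that holds back pyruvate dehydrogenase, rose in all 7 heifers from a median of 71.8 to one of 101 CPM (log2 fold change 0.71, standard error 0.08, FDR = 0.0161). In heifer 604 it went from 102 to 70.4 CPM, and over 9 heifers its log2 fold change of 0.56 missed the threshold (FDR = 0.0779). *KLF17*, a further Krüppel family factor, was at 0.0407 to 0.740 CPM on D55 and at 0.986 to 2.23 CPM on D105 (log2 fold change 2.97, standard error 0.37, FDR = 0.0182).

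For several of the genes above the 7 heifers gave similar values. The log2 fold change was 2.18 for *C5AR1* (standard error 0.41, FDR = 0.0451), 3.73 for *ALOX5* (standard error 0.71, FDR = 0.0451) and 3.73 for *HPGD* (standard error 0.59, FDR = 0.0342). For *LEF1* it was 0.73 (standard error 0.12, FDR = 0.0349), and without the pair the 7 D105 values, 307 to 604 CPM, all lay above the 7 D55 values of 140 to 303 CPM. *SDS*, *TGM3*, *TGFA*, *ALOX15* and *IL1B* were no longer called, with FDR between 0.0506 and 0.0756 and log2 fold changes between 2.39 and 4.94. *DGAT2*, which makes triacylglycerol, rose from a median of 4.76 CPM to one of 93.9 CPM (log2 fold change 3.62, standard error 0.64, FDR = 0.0389), and *ZFYVE28* from 0.403 to 14.5 CPM (log2 fold change 3.67, standard error 0.62, FDR = 0.0358). The loci *LOC101908144* and *LOC101907753* rose with log2 fold changes of 3.70 and 3.67. *LTF*, the iron-binding lactoferrin of neutrophil granules, was below the count filter in the 9-heifer comparison and was called in the 7 heifers (log2 fold change 2.36, standard error 0.40, FDR = 0.0358) from levels of 0.0407 to 1.13 CPM on D55 and 0.0448 to 5.35 CPM on D105. Without the filter it was not called over the 9 heifers either (log2 fold change 1.70, FDR = 0.133), and it was lower on D105 in 557, 604 and 664.

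A further set was called lower in the 7 heifers and was not lower in 604 or 664. *HBB*, the β globin of red cells, was at 19.3 to 208 CPM on D55 (median 78.1) and at 9.16 to 132 CPM on D105 (median 56.1) in the 7 heifers, all of them lower (log2 fold change -0.93, standard error 0.15, FDR = 0.0342). It went from 192 to 571 CPM in 604 and from 64.8 to 134 CPM in 664. *TGFB2* (log2 fold change -1.01, standard error 0.19, FDR = 0.0465), *TGM2* (-0.87, standard error 0.16, FDR = 0.0451), *DENND2A* (-1.14, standard error 0.18, FDR = 0.0354) and *TBX21*, the T-bet transcription factor of type 1 lymphocytes (-0.40, standard error 0.08, FDR = 0.048), were also lower in all 7. *TBX21* had a log2 change of 0.72 in 604 and of 0.01 in 664. *TGFB2*, a transforming growth factor, was at 0.784 to 17.9 CPM on D55 in the 7 heifers and at 0.35 to 9.91 CPM on D105, but rose from 1.90 to 5.06 CPM in 604 and from 0.553 to 1.26 CPM in 664.

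The change between days was then compared directly between 604 and 664 and the other 7 heifers. By an interaction term, 1072 of 16698 genes differed (6.42%), 716 with a higher change in the pair (4.29%) and 356 with a lower one (2.13%). Because the pair was partly singled out by its expression on D105, these calls are not independent evidence that the heifers stand apart. The count rested on both heifers together. It was 0 without 604 (1989 genes at an unadjusted p under 0.05) and 6 without 664. With the share of reads on no gene as a covariate, an alternative added after the data were seen, it was 0 (470 at an unadjusted p under 0.05). That share was higher by 12.2 percentage points on D105 in both heifers and by -3.38 to 6.04 in the other 7. Its part in the differences cannot be told apart from that of the heifers. RNA quality was not measured here, and its part in these calls was not tested. None of the 37 mitochondrial symbols of the reference annotation is among the NCBI symbols counted.

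Proliferation genes were lower in the pair. *MKI67*, the Ki-67 antigen of cycling cells, fell from 181 to 52.5 CPM in 604 and from 228 to 49.5 CPM in 664, whereas the other 7 were at 86.2 to 288 CPM on D55 and 105 to 285 CPM on D105 (log2 difference -1.93, standard error 0.21, FDR = 0.0144). Of 26 proliferation genes, 17 had a lower change in the pair and none a higher one, beside 2.13% lower over all genes tested. Their median log2 difference was -1.13, beside -0.0139 over all genes tested. *CENPF*, a kinetochore protein, and *TOP2A*, DNA topoisomerase II, had log2 differences of -1.48 (standard error 0.18) and -1.56 (standard error 0.20), and *CCNB2*, cyclin B2, one of -2.02 (standard error 0.28, FDR = 0.0166). *ASPM*, a spindle protein, went from 15.5 to 2.15 CPM in 604 and from 16.3 to 2.73 CPM in 664, against 5.76 to 20.9 and 7.15 to 18.4 CPM in the others (log2 difference -2.56, standard error 0.33, FDR = 0.0144). In the 7 heifers the 26 genes had a median log2 fold change of -0.03, and in all 9 one of -0.23.

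Platelet genes went the other way, with 10 of 15 tested higher in the change of the pair and none lower, beside 4.29% higher over all genes tested. *TUBB1*, the β tubulin of platelets, went from 1200 to 3310 CPM in 604 and from 245 to 463 CPM in 664, and the other 7 were at 415 to 1240 CPM on D55 (median 584) and 201 to 873 CPM on D105 (median 291). The log2 difference was 1.99 (standard error 0.39, FDR = 0.0248). *PF4*, platelet factor 4, rose from 704 to 2270 CPM in 604 and from 104 to 222 CPM in 664 (log2 difference 2.20, standard error 0.47, FDR = 0.0293). These sizes depended on the setting. Over the alternatives tried on the NCBI counts, the log2 difference ran from 0.28 to 2.47 for *PF4* and from 0.42 to 2.25 for *TUBB1*. The summed platelet list reached 7740 CPM in 604 on D105, far above the 539 to 2040 CPM of the 7 heifers, while 664 with 1080 CPM lay among them. *HBB* and *ALAS2*, the first enzyme of heme synthesis in red cells, were called among 8 erythroid genes, with log2 differences of 2.24 (standard error 0.30, FDR = 0.0163) and 2.07 (standard error 0.50, FDR = 0.0386).

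Some genes of RNA processing and translation had a higher change in the pair, while most members of these lists did not pass the test. Over all genes tested, 4.29% had a higher change in the pair and 2.13% a lower one. Of 39 genes for SR proteins and nuclear speckles, 14 had a higher change and 1, *SRSF12*, a lower one, with a median log2 difference of 0.27. With the share of reads on no gene as a covariate, *LUC7L* (-0.13), *SREK1* (-0.02), *ACIN1* (-0.07) and *PNISR* (0) lost their positive sign. *LUC7L3*, a splicing factor of the U1 particle, went from 256 to 834 CPM in 604 and from 279 to 797 CPM in 664, against 192 to 270 CPM on D55 and 195 to 423 CPM on D105 in the others (log2 difference 1.38, standard error 0.25, FDR = 0.0244). *RBM25*, a regulator of splice site choice, had a log2 difference of 1.06 (standard error 0.18, FDR = 0.0227). Over the alternatives tried on the NCBI counts, the log2 difference ran from 0.26 to 1.45 for *LUC7L3* and from 0.34 to 1.22 for *RBM25*. It ran from 0.5 to 0.99 for *RPL18* and from 0.39 to 0.89 for *NDUFS5*, both given below. Ribosomal protein genes were higher for 19 of 77 and lower for none. *RPL18* went from 1070 to 2310 CPM in 604 and from 1190 to 2420 CPM in 664, and the other 7 stayed between 934 and 1560 CPM on D105 (log2 difference 0.97, standard error 0.19, FDR = 0.0254). Nuclear-encoded respiratory chain genes were higher for 15 of 76 and lower for 1, with *NDUFS5* of complex I at 0.86 (standard error 0.17, FDR = 0.025).

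**Figure D3:**
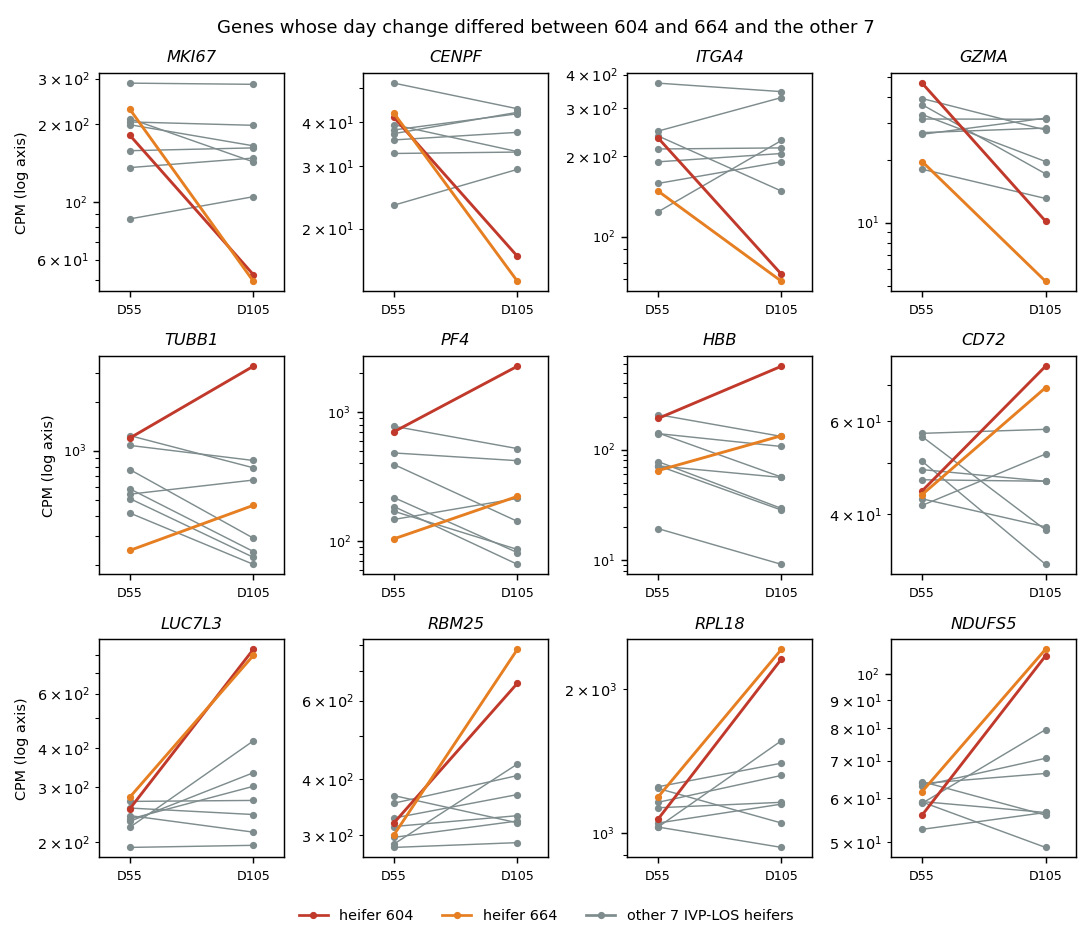
CPM (log axis) of 12 genes whose change between days differed between 604 (red) and 664 (orange) and the other 7 IVP-LOS heifers (grey), with 1 line per heifer and a separate scale in each panel. *MKI67* fell to 52.5 and 49.5 CPM in the pair while the others stayed at 105 to 285 CPM, and *LUC7L3* reached 834 and 797 CPM against 195 to 423 CPM.

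Lymphocyte genes were split. Among B and plasma cell genes, *CD72* and *PAX5* had a higher change in the pair and *MZB1*, a chaperone of antibody secretion, a lower one (log2 difference -0.99, standard error 0.26, FDR = 0.0464). *CD72*, an inhibitory receptor of B cells, went from 44.2 to 76.1 CPM in 604 and from 43.5 to 69.3 CPM in 664, against 41.5 to 56.8 CPM on D55 and 32.1 to 57.8 CPM on D105 in the others (log2 difference 0.89, standard error 0.22, FDR = 0.0402). *PAX5*, the transcription factor that keeps B cell identity, had a log2 difference of 0.78 (standard error 0.20, FDR = 0.043), which turned to -0.05 with the share of reads on no gene as a covariate. *GZMA*, a granzyme of cytotoxic lymphocytes, went from 46.8 to 10.2 CPM and from 19.7 to 5.25 CPM (log2 difference -1.71, standard error 0.33, FDR = 0.0248). In the same list of 22 natural killer and cytotoxic genes *TBX21* had a higher change in the pair (0.76, standard error 0.20, FDR = 0.046), and no other member was called. *ITGA4* and *ITGAL*, integrin α chains of lymphocyte adhesion, were lower with -1.52 (standard error 0.32, FDR = 0.0285) and -1.01 (standard error 0.22, FDR = 0.0293), and with that covariate the value of *ITGAL* turned to 0.02. *FOXP3*, the regulator of regulatory T cells, was lower with -1.42 (standard error 0.26, FDR = 0.0244), from 9.98 to 5.82 CPM in 604 and from 7.32 to 3.66 CPM in 664, where the other 7 were at 5.93 to 9.48 CPM on D55 and 8.76 to 12.8 CPM on D105. Of the 14 checkpoint and regulatory genes, *IKZF2* and *LAG3* were also called lower and *TNFRSF4*, a costimulatory receptor, was called higher (0.82, standard error 0.22, FDR = 0.0483). The median log2 difference over 16 monocyte genes was -1.05, and none of the 16 had a positive one. The other genes of smallest FDR were *CSPP1* (1.4, standard error 0.18), *NPL* (2.00, standard error 0.26) and *RP9* (1.34, standard error 0.17), each with FDR = 0.0144.

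Counting against a second annotation moved the library measure of 604 and 664. On Ensembl genes, their D105 libraries had the lowest shares of reads on no gene, 24.8% and 25.6%, while the other 7 had 29.9% to 32.1%. Their shares of reads that fell on more than one Ensembl gene were the highest, 3.38% and 3.14%, against 1.61% to 2.28%. A set of 12 Ensembl genes, chosen for the largest rise in these libraries and therefore described with no test, took 28.6% and 25.8% of the gene reads of 604 and 664 on D105, where they had taken 7.65% and 6.98% on D55. In the other 7 D105 libraries the same genes took 5.55% to 13.9%, the highest being heifer 557. Among them were ENSBTAG00000043561, at 88200 and 70100 CPM in 604 and 664 on D105, and ENSBTAG00000043560, at 37500 and 32500 CPM. The tables do not pair these identifiers with symbols.

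**Figure D4:**
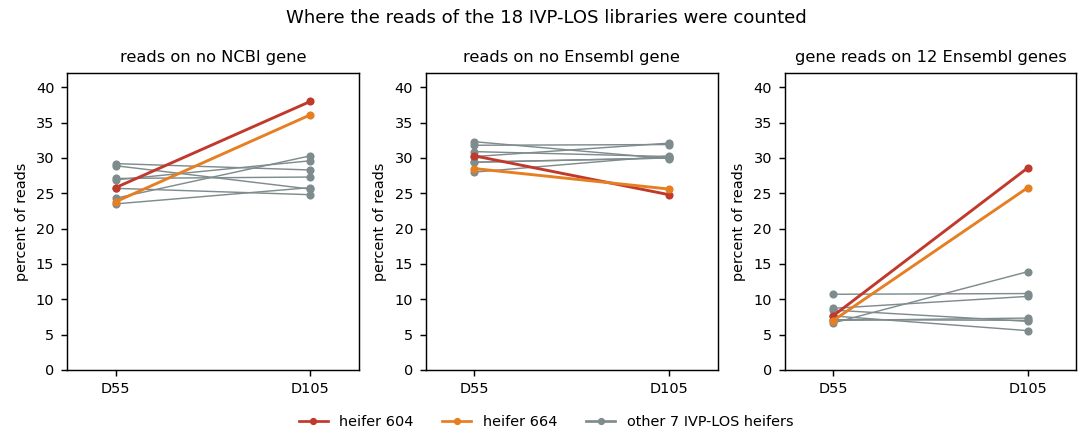
Percent of reads on no NCBI gene, percent on no Ensembl gene, and percent of Ensembl gene reads on the set of Ensembl genes that rose most in 604 and 664, in the D55 and D105 libraries of the 9 IVP-LOS heifers, with 604 in red, 664 in orange and the others in grey. In 604 and 664 the first share rose to 38.0% and 36.1% and the second fell to 24.8% and 25.6%.

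The change between days was set beside that of the other pregnancies. In the 8 AI heifers 2603 of 15248 genes were called (17.1%, with 10.2% higher and 6.89% lower), and in the 6 IVP-Normal heifers 838 of 15248 (5.5%, with 4.49% higher and 1.01% lower). All 162 genes of the IVP-LOS heifers were tested in both groups and had the same sign in both, while over all genes the sign was the same for 64.4% in AI and for 77.4% in IVP-Normal. Of the 162 genes, 134 were called in AI in the same direction, which is 82.7% of them and 5.15% of the AI calls. In IVP-Normal, whose libraries of both days belong to the set New, 120 were called in the same direction, which is 74.1% of them and 14.3% of the IVP-Normal calls. Called in all 3 groups with 1 direction were 111 genes, 92 of them higher.

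The difference in change between groups was tested for each gene. Between IVP-LOS and AI none of 16018 genes was called (0%, with 1674 at an unadjusted p under 0.05), and between IVP-LOS and IVP-Normal none of 16181 (0%, with 449). Without 604 and 664 the counts were again 0 of 16028 against AI (808) and 0 of 16057 against IVP-Normal (408). DESeq2 also gave 0 in each of these 4 comparisons, with 1830, 493, 807 and 375 genes at an unadjusted p under 0.05. A difference in the number of genes called in single groups is therefore not a difference in change shown for any gene.

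The size of the change over the called genes was set side by side for the 3 groups. Over the 118 higher genes, the median log2 change of a heifer ran from 0.49 to 1.54 in IVP-LOS (median 0.96), from 0.71 to 1.86 in AI (median 1.55) and from 0.68 to 2.30 in IVP-Normal (median 1.67). Over the 44 lower genes it ran from -0.64 to -0.29 in IVP-LOS (median -0.49), from -0.67 to -0.28 in AI (median -0.38) and from -0.71 to -0.28 in IVP-Normal (median -0.49). The AI and IVP-Normal values were not used to choose these genes, whereas those of IVP-LOS were. The change varied slightly more between heifers of IVP-LOS, with a median SD over genes of 0.31 on the log2 scale, against 0.26 in AI, 0.29 in IVP-Normal and 0.26 in IVP-LOS without 604 and 664.

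**Figure D5:**
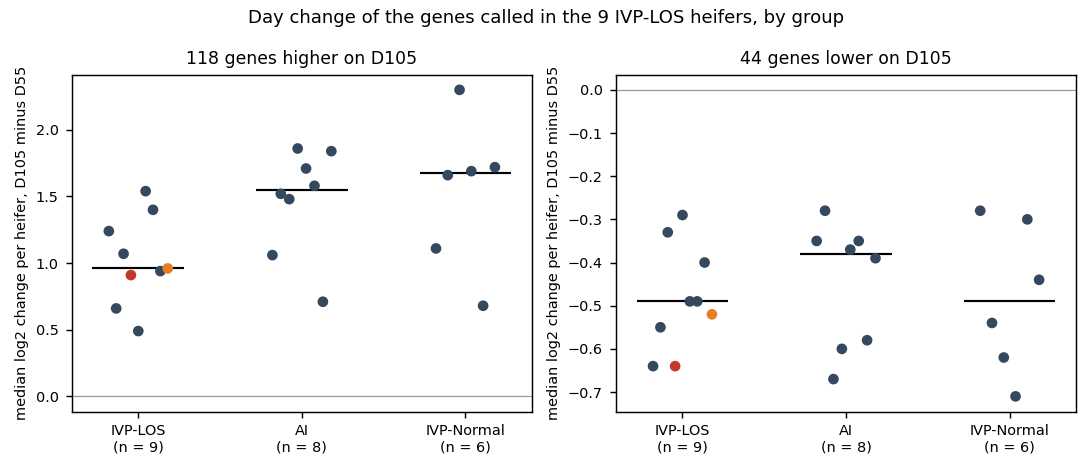
Median log2 change from D55 to D105 per heifer over the 118 genes higher (left) and the 44 genes lower (right) on D105 in the 9 IVP-LOS heifers, with 1 point per heifer, 604 in red, 664 in orange and a bar at the group median. In all 3 groups every median over the higher genes was positive and every median over the lower genes negative; the IVP-LOS points chose the genes, the AI and IVP-Normal points did not.

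The gene lists give the same values in detail. Among the 8 chemoattractant receptors, 5 rose in AI and 5 in IVP-Normal, where 1 rose in IVP-LOS, and the median log2 fold changes were 2.41, 2.51 and 1.42. For the granule genes 12 of 14 rose in AI and 9 of 13 in IVP-Normal. Of the interleukin-1 and interleukin-18 family 7 of 9 rose in each, of 32 interferon-stimulated genes 18 and 7, and of 24 immediate early genes 11 and 11. Over all genes tested, 10.2% were called higher in AI, 4.49% in IVP-Normal and 0.778% in IVP-LOS, so list counts also follow these shares. Not every list had a smaller change in IVP-LOS. The eosinophil genes had median log2 fold changes of 1.28 in IVP-LOS, 1.29 in AI and 1.49 in IVP-Normal. For *CXCR2* the log2 fold change was 4.37 in AI (FDR = 0.00015) and 3.86 in IVP-Normal (FDR = 0.00196). The difference of IVP-LOS from AI was -1.84 (approximate 95% interval -3.27 to -0.42, FDR = 0.474). For *C5AR1* the differences from AI and IVP-Normal were -0.47 (-1.27 to 0.32) and -0.79 (-1.90 to 0.31) (FDR = 0.629 and FDR = 1). For *DUSP2* they were -1.17 (-2.05 to -0.29, FDR = 0.474) and -1.25 (-1.98 to -0.51, FDR = 1).

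*BAG3* and *GPR31* were called in IVP-LOS and in neither of the other groups. *BAG3* had log2 fold changes of -0.20 in AI (FDR = 0.174) and -0.01 in IVP-Normal (FDR = 0.98), and the differences from them were -0.30 (-0.57 to -0.03, FDR = 0.474) and -0.50 (-0.92 to -0.09, FDR = 1). *GPR31* had -0.28 in AI and -0.37 in IVP-Normal, with differences of -0.58 (-1.04 to -0.13, FDR = 0.474) and -0.50 (-1.03 to 0.02, FDR = 1). In all, 19 of the 162 genes were called in neither AI nor IVP-Normal, and none of their differences passed the threshold. The genes nearest to it against AI were *LOC107132398*, *SPIDR*, *MIR197* and *MINDY4*, all with FDR = 0.474. *SPIDR*, a scaffold of DNA repair, had a log2 fold change of 0.34 in IVP-LOS and 1.05 in AI, and *MINDY4*, a deubiquitinase, -0.78 and 0.41. Against IVP-Normal they were *LOC104972445*, *LOC101903616*, *IDO2* and *SGSH*, all with FDR = 1, where *IDO2*, an enzyme of tryptophan breakdown, had 0.12 in IVP-LOS and 1.29 in IVP-Normal. Without 604 and 664 they were *DANCR*, *TLL2*, *LOC517108* and *LOC101909173* against AI (FDR = 0.913) and *LOC101905776*, *LOC104972445*, *F2RL3* and *IDO2* against IVP-Normal (FDR = 0.999).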

How the data were processed

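Blood was drawn into EDTA, leukocytes were isolated from the buffy coat after lysis of red cells, and TRIzol RNA was sequenced as paired-end reads. Per the labels and the study's methods, the authors aligned reads to the bovine genome ARS-UCD1.2 with HISAT2 2.1.0 and counted reads per gene with HTSeq, and they deposited raw counts for NCBI and for Ensembl genes, with no normalization. The submitters' processing notes also name FastQC, MultiQC, edgeR and DESeq2.

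The NCBI counts were tested here in R 4.3.3 with edgeR 4.0.16, using quasi-likelihood F-tests, TMM factors, filterByExpr with a minimum count of 10, the heifer as a block and Benjamini-Hochberg FDR of at most 0.05. The 5 summary rows of reads on no single gene were left out of tests. The log2 change of a single heifer used CPM + 0.5. Intervals of differences are the estimate ± 1.96 standard errors. The difference between 604 and 664 and the other 7 heifers, and those between groups, were interaction terms beside the heifer block. Library measures were compared by exact sign-flip permutation tests, two-sided, whose smallest possible p is 0.00391 for 9 heifers and 0.0156 for 7.

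The pairing comes from the heifer number in the labels. Libraries of 1 heifer deviated together from the day means in 9 of 9 heifers (lowest correlation 0.288, mean 0.547, against -0.0666 between heifers), and 8 of 9 correlated best with their own heifer. Each library is 1 heifer on 1 day. With the heifer as a block, p-values measure how the change between days varied across heifers, not how heifers differed in level.

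Alternatives were DESeq2 1.42.0, a likelihood ratio test, upper-quartile normalization, no filter, no block, all 46 libraries, Ensembl counts, the share of reads on no gene as a covariate and leaving out each heifer. The members and gene lists were chosen with earlier results of these data known. The text names, for each day comparison of IVP-LOS, the 10 called genes of smallest FDR, the 8 largest shared rises and falls with a mean of at least 1 CPM, and called list members up to 15 in a list (otherwise some of the 4 of smallest FDR), for the pair the 6 genes of smallest FDR, and for each group difference the 4 of smallest FDR. Of 30675 NCBI genes, 24529 matched a RefSeq symbol (ARS-UCD2.0, used for names and gene types, and for the place of *MIR3064*). Sequences and coordinates were not used here. Some genes that this rule would name are not reported here.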

Additional observations from a re-analysis of the deposited data

Results flagged for a closer look

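Of 40 sets of per heifer changes examined for a value far from the rest, 3 had such a value. Chance gives about 1 in 20 for sets not chosen by their values, whereas these genes were chosen from the calls. *HIST2H2BF* had a log2 change of -2.47 in heifer 656, against -1.49 to -0.61 in the other heifers. *CTLA4* had a log2 change of 0 in heifer 604, against 0.70 to 1.4. *PDK1* had a log2 change of -0.54 in heifer 604, against 0.33 to 1.08.

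The change between days differed between 604 and 664 and the other 7 IVP-LOS heifers for 1072 genes by the interaction term. The count was 22 without the heifer block and 0 with the share of reads on no gene as a covariate. The pair was partly singled out by its expression on D105, so these calls are no independent evidence that it stands apart. The 6 genes of smallest FDR had log2 differences of -1.93 (*MKI67*), -1.48 (*CENPF*), 1.4 (*CSPP1*), 2.00 (*NPL*), -2.56 (*ASPM*) and 1.34 (*RP9*).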

How the results depend on the processing

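Without the heifer block, which ignores the pairing, the calls numbered 38 in the 9 IVP-LOS heifers, 12 in the 7, 22 for 604 and 664 against the others, 1517 in AI and 374 in IVP-Normal. DESeq2 gave 726, 663, 2146 and, in IVP-Normal, 1314. The likelihood ratio test gave 590, 674 and 2208, and all 46 libraries in 1 fit gave 872, 621 and 1675. Without a filter the 9 and 7 heifers had 271 and 349 calls, with Ensembl counts 98 and 50, and with the share of reads on no gene as a covariate 493 and 274, while that covariate left 0 for the pair. Leaving out 1 heifer gave 45 to 190 calls in the 9, 2 to 447 in the 7 and 0 to 6 for the pair. Under the covariate, the log2 difference of the pair changed sign for *PAX5* (-0.05), *NLRP1* (0.17), *ITGAL* (0.02), *PNISR* (0), *LUC7L* (-0.13), *SREK1* (-0.02) and *ACIN1* (-0.07). The cause was not tested. No named gene of the 2 day comparisons changed sign, and 12 of 35 named in the 9 heifers and 2 of 35 in the 7 were called under every alternative that gave a value. The group differences stayed at 0 calls under each alternative run. Genes of few reads, such as *MS4A2*, are limited by depth. Genes low on D55, such as *MS4A2*, *SCN2B*, *TGFA* and *LOC100139881*, could pass the count filter through their D105 libraries.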
